A study of Homo sapiens with 4 samples.

Results

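The KMT2 (MLL) family of histone H3K4 methyltransferases and the KDM6 family of histone H3K27 demethylases were followed in HAP1 cells in which both catalytic subunits of PRC1 had been inactivated and BAP1 was either retained or inactivated too. The set was a list of 8 genes taken by name, with no measured value in the rule, although earlier results of these data were known when it was drawn up: the methyltransferases KMT2A, KMT2B, KMT2C and KMT2D, the demethylases KDM6A and KDM6B, and PAXIP1 and NCOA6, which encode subunits of the KMT2C and KMT2D complexes. All 8 symbols matched a row among the 57820 genes counted, and 7 of them were among the 15136 genes that passed the expression filter, a CPM (gene count scaled to the library's total) above 0.5 in 2 or more libraries. KMT2B was the member that did not pass.

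The KMT2 enzymes descend from Trithorax, which keeps genes active and acts against Polycomb silencing. KMT2A and KMT2B work with Menin mainly at promoters, whereas KMT2C and KMT2D methylate H3K4 at enhancers in a complex that also holds the H3K27 demethylase KDM6A, so that an activating mark is written and a Polycomb mark is erased by the same assembly. BAP1 is a deubiquitinase that removes the ubiquitin placed by PRC1 on histone H2A, and it has been linked to the recruitment of KMT2C and KDM6A to chromatin.

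Transcripts were measured by RNA-seq in untreated HAP1 cells, a nearly haploid human line derived from a chronic myeloid leukaemia. The dKO group (2 libraries) carried inactivated RING1A and RING1B, the catalytic subunits of PRC1, and the tKO group (2 libraries) carried inactivated RING1A, RING1B and BAP1, so both groups shared the PRC1 knockouts and no library with intact PRC1 was used here. BAP1 and RING1A had been disrupted with an inserted STOP cassette and clones had then been selected, and the RING1B knockout cells had been purchased. How many clones stood behind each group is not given in the sources used here, so the loss of BAP1 and the identity of a clone cannot be told apart. Setting tKO against dKO asks whether the genes of this machinery depended on BAP1 for their transcript level in cells with inactivated PRC1.

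The libraries held between 16054590 and 18455410 gene counts, and 3 counts, the floor used here for a detectable level, came to between 0.163 and 0.187 CPM. BAP1 itself fell, from 2046 counts (dKO 1) and 2010 (dKO 2) to 158 (tKO 1) and 107 (tKO 2) (log2 fold change −3.77, SE 0.19, limma adjusted p = 0.00650), in the direction its genotype labels give. BAP1 lies in a stretch of chromosome 3 that was low in tKO 2, where the 117 genes within 5 Mb of it had a median of −0.91, but BAP1 was also at −3.50 in tKO 1, where that median was −0.00 (log2, against the dKO mean). RING1, which encodes RING1A, had between 12 and 17 counts in every library, and RNF2, which encodes RING1B, kept between 1102 and 1561. The RNF2 transcript thus does not show the inactivation that the labels give. Without a library with intact PRC1 neither gene could be checked by its transcript level. At the protein level the paper reported, by western blot, no PRC1-placed ubiquitin on histone H2A in either genotype. Of 6 haematopoietic markers 5 had at most 3 counts in every library. VIM, FN1 and ITGB1, markers of adherent mesenchymal cells, summed to 803 and 784 CPM in dKO and 443 and 767 CPM in tKO. The low sum in tKO 1 came from VIM, at 514 and 479 CPM in dKO and 263 and 490 CPM in tKO, and from ITGB1. ITGB1 had 189 and 206 CPM in dKO and 91.2 and 170 CPM in tKO, whereas FN1 had between 88.6 and 107 CPM. Of the 3 epithelial markers examined EPCAM and CDH1 had at most 3 counts in every library, and KRT18 had between 18.6 and 22.8 CPM. Regional medians were taken over tested genes with a mean log2-CPM above 1. In tKO 1 the 112 such genes at the start of chromosome 10 had a median of −0.97 (log2, against the dKO mean), and in tKO 2 the 304 at the start of chromosome 3 had a median of −0.93. No member lies in either stretch.

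None of the 7 tested members was differentially expressed (DE, defined by an adjusted p below 0.05 together with a log2 fold change beyond 1 in either direction) between tKO and dKO cells. Among all tested genes 2, or 0.0132%, were DE with limma, namely BAP1 and SERPINB9, the latter an inhibitor of granzyme B that was named after its values were seen (79 and 77 counts in dKO, 0 in both tKO libraries). At an unadjusted limma p below 0.05, 0 of 7 members and 3.55% of all tested genes were called. On the log2-CPM scale the groups overlapped for 7 of 7 members, and they did not overlap for 31.7% of all tested genes. For 2 libraries against 2, non-overlap has an exact two-sided permutation p of 0.333. The 31.7% is thus near the share expected where the groups do not differ. With so few DE calls among all genes, a count of 0 among 7 members is close to the background.

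The members' fold changes were small. The log2 fold change (tKO minus dKO) lay between 0.01 and 0.21 over the 7 members, with a median of 0.05, beside a median of −0.00 over all tested genes, of which 7523 were above 0. Across the 7 members the 95% intervals ran from −0.33 at the lowest to 0.59 at the highest, that is from 0.794-fold to 1.51-fold, so changes beyond these bounds lay outside the interval of every member. The smallest adjusted p among members was 0.996 (limma).

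**Figure D1:**
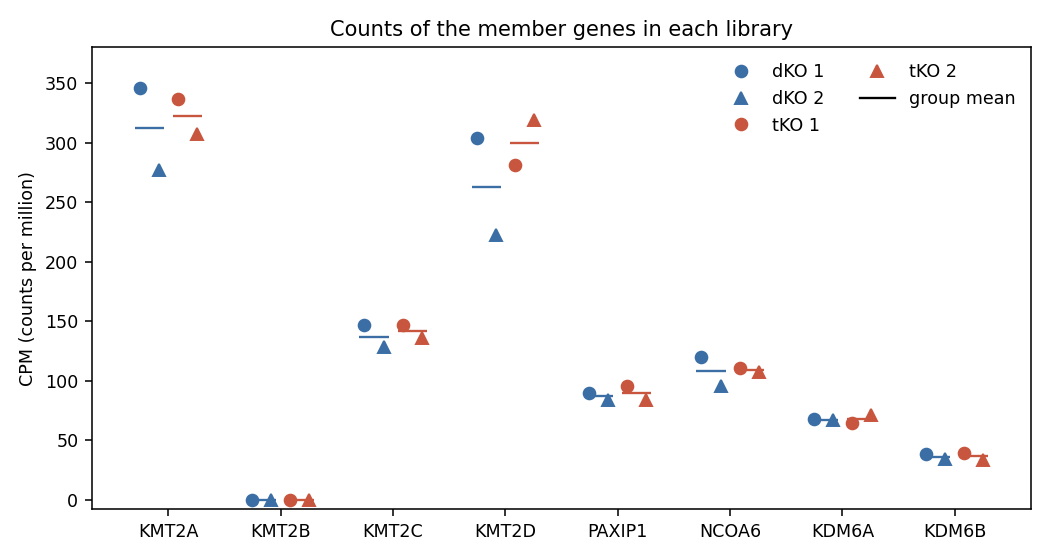
CPM of each of the 8 genes (vertical axis) in the 4 libraries: circles and triangles are libraries 1 and 2, blue is dKO, red is tKO, and the short lines are group means. The blue and red points overlap for the 7 expressed genes, dKO 2 is clearly the lowest library for KMT2A, KMT2C, KMT2D and NCOA6, and KMT2B is listed at 0 throughout.

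KMT2A, the founding Trithorax homologue and frequently rearranged in leukaemia, lies on the plus strand of chromosome 11 (GRCh37 chr11:118307171-118397547; ENSG00000118058). Its canonical transcript has 36 exons and 16.6 kb. KMT2A had 346 and 277 CPM in dKO 1 and dKO 2 and 337 and 307 CPM in tKO 1 and tKO 2. Both tKO values fell between those of dKO, so the spread within dKO (312 ± 48.4, SD, n = 2) exceeded the difference to tKO (322 ± 21.2, SD, n = 2). The log2 fold change was 0.06 (SE 0.13, 95% interval −0.26 to 0.37, limma adjusted p = 0.996).

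KMT2B, the closest paralog of KMT2A, lies on chromosome 19 (GRCh37 chr19:36208875-36229781; ENSG00000272333). It was listed at 0 in all 4 libraries, in the antisense, sense and unstranded columns alike. Of its 7375 exonic windows of 31 bases 0.163% recur elsewhere in the genome, the same share as for KMT2D. A gene can be listed at 0 because its reads were left uncounted, as happens to reads shared with another annotated gene, and between 418465 and 469297 reads per library were set aside as ambiguous in this way. Whether KMT2B was among them was not tested, since the annotation behind the counts was not used here. The 0 is therefore given as the listed value and not as absence of the transcript, and no fold change or ratio was formed with it. Of 19404 protein-coding genes with a symbol, 4424 were likewise listed at 0 in all 4 libraries.

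KMT2D, an enhancer H3K4 monomethyltransferase, lies on the minus strand of chromosome 12 (GRCh37 chr12:49412758-49454577; ENSG00000167548) and has 55 exons in a canonical transcript of 20.6 kb, the longest of the set. KMT2D had 304 CPM in dKO 1, 222 CPM in dKO 2, 281 CPM in tKO 1 and 319 CPM in tKO 2. The dKO 2 library stood lowest, and dKO 1 lay between the tKO libraries. The group means were 263 ± 58.2 in dKO and 300 ± 26.8 in tKO (CPM, SD, n = 2 each), giving the fold change furthest from 0 among the members, 0.21 on the log2 scale (SE 0.16, 95% interval −0.18 to 0.59, limma adjusted p = 0.996). Without dKO 1 this value was 0.44 and without dKO 2 it was −0.03.

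KMT2C, the paralog of KMT2D in the same type of complex, lies on the minus strand of chromosome 7 (GRCh37 chr7:151832007-152133729; ENSG00000055609) and has 59 exons in 16.9 kb. KMT2C had 147 and 128 CPM in dKO and 147 and 136 CPM in tKO, so dKO 1 and tKO 1 were alike and dKO 2 was the lowest. The mean was 137 ± 13.4 CPM in dKO and 142 ± 7.72 CPM in tKO (SD, n = 2 each). The log2 fold change was 0.05 (SE 0.11, 95% interval −0.22 to 0.32, limma adjusted p = 0.996).

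KMT2C was the member with the largest share of sequence that recurs elsewhere in the genome. Of 15090 exonic windows of 31 bases in its canonical transcript, 1472 (9.75%) recurred exactly elsewhere in GRCh37, against 3.50% for KDM6A, 1.16% for NCOA6 and between 0.0773% and 0.533% for the other five members. The recurring windows were concentrated: 14 of 59 exons, between exon 7 and exon 34, had more than 50% of their windows repeated and held 90.8% of all repeated windows of the gene. Matches of 50 bases or more lay on chromosomes 1, 2, 7, 21 and 22 and on an unplaced sequence. This ranking left out 1 other chromosome. The longest exact match ranked covered 129 bases of coding exon 14 (GRCh37 chr7:151945205-151945333, minus strand) and recurred on chromosome 21 (GRCh37 chr21:11038947-11039075, minus strand). The sequence is shown because the match is longer than the 100-base reads, so that a read from within it has more than 1 place; capitals mark the exact match and lower case the bases of KMT2C on either side.
KMT2C exon 14: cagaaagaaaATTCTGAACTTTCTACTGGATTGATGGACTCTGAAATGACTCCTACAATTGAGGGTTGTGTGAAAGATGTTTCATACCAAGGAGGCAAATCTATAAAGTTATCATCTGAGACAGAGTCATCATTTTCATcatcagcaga

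**Figure D2:**
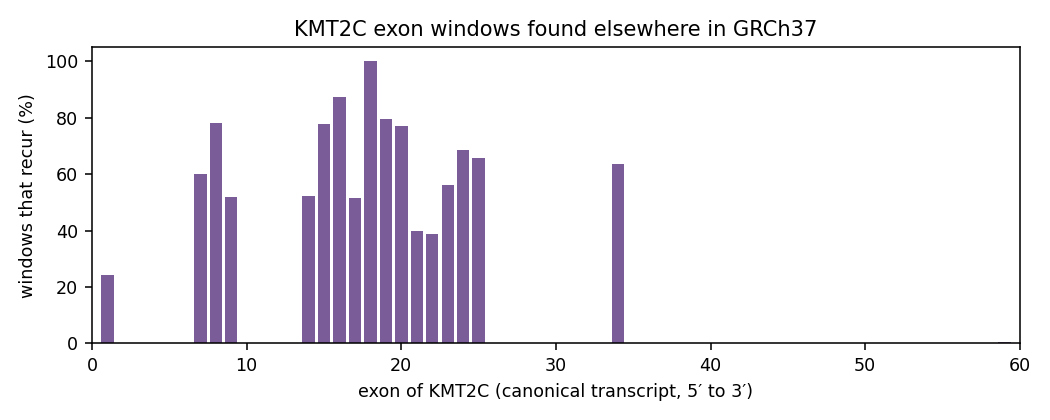
Share of 31-base windows (vertical axis, percent) in each exon of the canonical KMT2C transcript (horizontal axis, exon number) that recur exactly elsewhere in GRCh37. The bars above 50% stand at 14 of the 59 exons, from exon 7 to exon 34, and exon 18 reaches 100%.

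Only reads with 1 place in the genome were counted, so reads that lie wholly in such copies, and whose mates do too, were not counted for KMT2C in any library. The annotation holds 4 KMT2C pseudogenes, of which 1 had a row in the counts, with 1 count over the 4 libraries. How much this lowers the KMT2C level was not tested. The fold change compares the same exons in both groups.

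PAXIP1 encodes PTIP, a BRCT-domain subunit of the KMT2C and KMT2D complexes that also acts in the DNA damage response, and lies on chromosome 7 (GRCh37 chr7:154735397-154794834, minus strand; ENSG00000157212). PAXIP1 had 89.6 and 83.9 CPM in dKO and 95.4 and 84.0 CPM in tKO. In each genotype library 1 was the higher, and the ranges overlapped between 84.0 and 89.6 CPM. The means were 86.8 ± 4.02 and 89.7 ± 8.09 CPM (SD, n = 2 each) and the log2 fold change was 0.05 (SE 0.12, 95% interval −0.23 to 0.33, limma adjusted p = 0.996). In the unstranded column PAXIP1 kept between 79.3% and 82.9% of the count it had on its own strand, since reads that also cover a gene on the opposite strand are dropped when strand is ignored.

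NCOA6, a nuclear receptor coactivator and the other subunit followed here, lies on chromosome 20 (GRCh37 chr20:33276901-33413454, minus strand; ENSG00000198646). NCOA6 had 120 CPM in dKO 1, 95.9 CPM in dKO 2, 111 CPM in tKO 1 and 107 CPM in tKO 2. The 2 dKO libraries enclosed the tKO libraries, as for KMT2A. The means were nearly equal, 108 ± 16.7 in dKO and 109 ± 2.74 CPM in tKO (SD, n = 2 each), with a log2 fold change of 0.03 (SE 0.13, 95% interval −0.29 to 0.35, limma adjusted p = 0.996).

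KDM6A (UTX), the H3K27 demethylase of the KMT2C and KMT2D complexes, lies on the X chromosome (GRCh37 chrX:44732434-44972024, plus strand; ENSG00000147050). KDM6A had 68.1 and 66.6 CPM in dKO and 64.4 and 70.9 CPM in tKO. It was the steadiest member within dKO (67.4 ± 0.998 CPM, SD, n = 2), and the tKO libraries lay on either side of that pair (67.6 ± 4.58 CPM, SD, n = 2). The log2 fold change was 0.01 (SE 0.11, 95% interval −0.24 to 0.26, limma adjusted p = 0.997), the smallest of the 7.

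KDM6B (JMJD3), an inducible H3K27 demethylase that is not a subunit of those complexes, lies on chromosome 17 (GRCh37 chr17:7737535-7758114, plus strand; ENSG00000132510). KDM6B had 38.2 and 34.1 CPM in dKO and 39.7 and 33.5 CPM in tKO, the lowest CPM of the expressed members. Library 1 was the higher in each genotype, and the dKO values lay within those of tKO. The means were 36.1 ± 2.92 and 36.6 ± 4.39 CPM (SD, n = 2 each) and the log2 fold change was 0.02 (SE 0.15, 95% interval −0.33 to 0.37, limma adjusted p = 0.996).

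The widest spread of any member was that of KMT2D within dKO, whereas KDM6A, KDM6B and PAXIP1 spread more within tKO. The median absolute log2 ratio between libraries was 0.22 over members in dKO and 0.16 in tKO, beside 0.14 and 0.20 over all tested genes. All 7 tested members were lower in dKO 2 than in dKO 1, beside 49.2% of all tested genes, and their median log2 ratio (dKO 2 over dKO 1) was −0.22 beside 0.00. The ratio was −0.48 for KMT2D (95% counting interval −0.54 to −0.42), which was thus 1.39-fold higher in dKO 1, a larger absolute ratio than 99.6% of the 667 genes of like expression (within 0.5 log2 units of its mean level). It was −0.34 for both KMT2A and NCOA6, which stood at the 98.7 and 97.7 percentiles of genes of like level. KMT2C had −0.22, KDM6B −0.19, PAXIP1 −0.12 and KDM6A −0.05, and only for KDM6A did the counting interval (−0.17 to 0.06) include 0. Counting intervals treat reads as independent molecules and cover counting error only.

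Between the tKO libraries the members were less alike in direction. The log2 ratio of tKO 2 over tKO 1 was below 0 for 5 of 7 members, beside 49.6% of all tested genes. Its median was −0.14 over members and 0.00 over all tested genes. Among members the ratio ran from −0.27 for KDM6B to 0.16 for KMT2D. KMT2D thus had its lower value in library 2 of dKO and in library 1 of tKO.

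**Figure D3:**
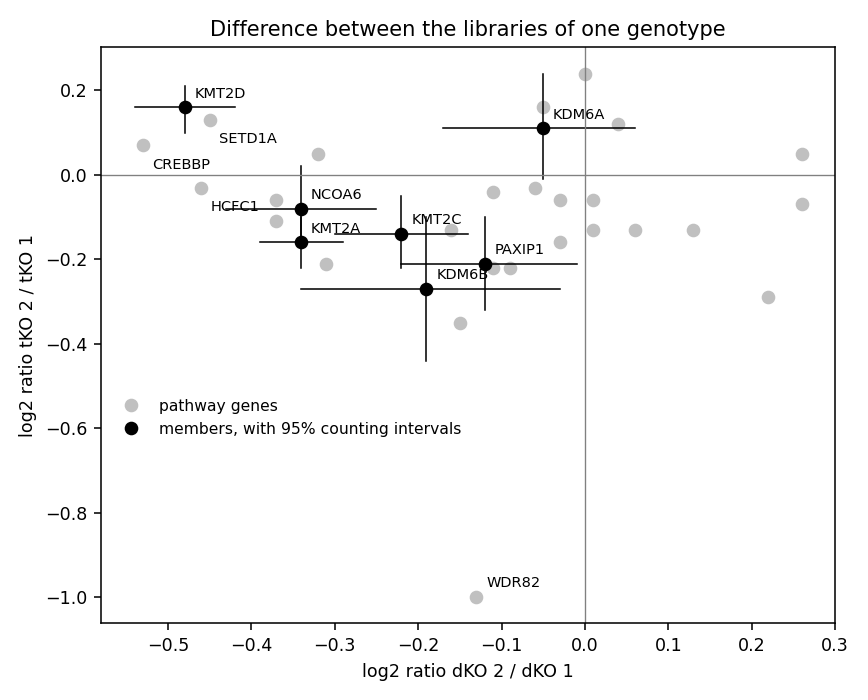
Log2 ratio of library 2 over library 1 in dKO (horizontal axis) and in tKO (vertical axis) for the 7 expressed members (black, with 95% counting intervals) and 26 pathway genes (grey). All black points lie left of 0, KMT2D furthest at −0.48, near CREBBP, HCFC1 and SETD1A, and WDR82 stands apart at the bottom, 1.99-fold higher in tKO 1 than in tKO 2.

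The pathway genes outside the set were mixed between the dKO libraries: 17 of 26 were lower in dKO 2, with a median log2 ratio of −0.08. The genes named here were chosen after their values were seen. CREBBP, a histone acetyltransferase, was 1.44-fold higher in dKO 1 than in dKO 2, HCFC1 was 1.38-fold, SETD1A 1.36-fold and EP300 1.30-fold higher, and each had a larger absolute ratio than at least 98.6% of genes of like level. Others were higher in dKO 2, among them KDM1B and HCFC2 (log2 ratio 0.26 each), PSIP1 (0.22) and KDM5B (0.13). KMT2E and ASH1L, of the Trithorax group as well, were slightly lower in dKO 2 (−0.06 and −0.09). The counting interval included 0 for KMT2E (−0.15 to 0.03) but not for ASH1L (−0.17 to −0.01). Over tested genes with a mean log2-CPM above 1 and a canonical transcript above 10 kb (559 genes) the median log2 ratio of dKO 2 over dKO 1 was −0.01, and over those of the same expression above 6 kb with a GC content above 55% (280 genes, KMT2D and KDM6B among them) it was −0.07. Over the 7 members the same median was −0.22. The part that transcript length, GC content, the culture or the preparation of a library had in this gap was not tested.

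The nearest transcript profiles to that of KMT2D, taken as the Euclidean distance between log2-CPM values centred over the 4 libraries, were those of SETD1A (0.0364), FBF1 (0.0450) and AC127496.1 (0.0489), and 35 genes lay within 0.1. SETD1A had 1269 and 921 counts in dKO and 1045 and 1141 in tKO, low in dKO 2 as KMT2D was. FBF1 had between 86 and 121 counts and AC127496.1 between 15 and 22, so their distances rest on few reads. With 4 libraries such likeness is a description of these samples.

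Levels of different genes were compared as CPM per kilobase, which depends on the length assigned to each gene. By canonical transcript length PAXIP1 stood highest with a mean of 22.8 CPM per kb over the 4 libraries, followed by KMT2A with 19.1, NCOA6 with 15.3, KMT2D with 13.6, KDM6A with 11.1, KMT2C with 8.28 and KDM6B with 5.41. PAXIP1 did not overlap KMT2A, and KDM6A, KMT2C and KDM6B did not overlap each other over the 4 libraries. The neighbours from KMT2A to KDM6A in this order overlapped, each with the next. Among 12539 protein-coding tested genes the members ranged from the 32.1 percentile (KDM6B) to the 73.6 percentile (PAXIP1), middling levels by this length. With the union of annotated exons as the length they ranged from the 25.5 percentile (KDM6A) to the 66.8 percentile (KMT2D).

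By the union of all annotated exons the order was KMT2D with 11.1 CPM per kb, KMT2A with 10.1, NCOA6 with 9.74, PAXIP1 with 9.11, KDM6B with 4.92, KMT2C with 2.62 and KDM6A with 2.43. The first 4 overlapped as neighbours, as did KMT2C and KDM6A. By the longest transcript KMT2A came first with 18.9 CPM per kb. Under all 3 lengths the mean levels of KMT2A, KMT2D, NCOA6 and PAXIP1 were above those of KMT2C, KDM6A and KDM6B, whereas the order within each of these groups changed with the length.

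**Figure D4:**
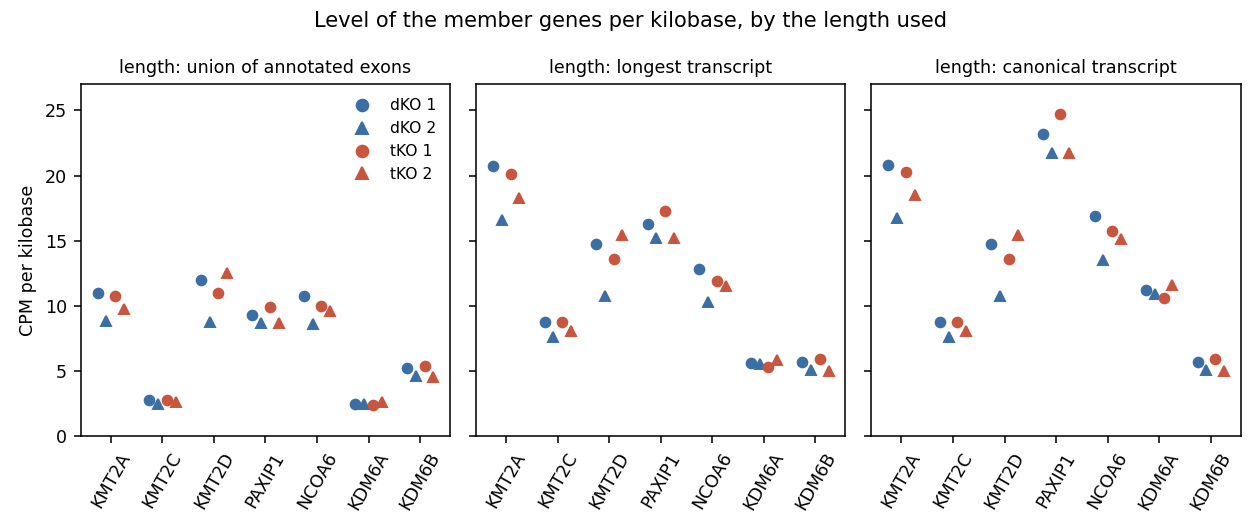
CPM per kilobase (vertical axes, from 0) of the 7 expressed members in each library, with the length taken as the union of annotated exons, the longest transcript or the canonical transcript; colours are genotypes and shapes are libraries 1 and 2. KMT2A, KMT2D, PAXIP1 and NCOA6 have the higher means in every panel, and KDM6A and KDM6B exchange places between the first panel and the last.

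Ratios between paralogs in the same library cancel the library size. On canonical lengths KMT2D was between 1.42-fold and 1.91-fold higher than KMT2C per kilobase in the 4 libraries, with log2 ratios of KMT2C over KMT2D of −0.76 and −0.50 in dKO and −0.64 and −0.93 in tKO. On the union of exons the gap was wider, with KMT2D between 3.63-fold and 4.90-fold higher than KMT2C, so its size depended on the length while its direction did not. The mean ratio differed by −0.16 on either length (tKO minus dKO), which was smaller than the spread within either genotype (SD 0.18 in dKO and 0.21 in tKO), and the gap is read with the uncounted copies of KMT2C exons in mind. The ratio of KMT2A over KMT2C was steadier, 1.26 and 1.14 in dKO and 1.22 and 1.19 in tKO on the log2 scale, and its means differed by 0.01. The ratio of KDM6A over KDM6B was 0.98 and 1.11 in dKO and 0.84 and 1.22 in tKO, with means that differed by −0.01. On the union of exons the KDM6A over KDM6B ratio turned to between −1.21 and −0.83, so which demethylase transcript was the more abundant depended on the length used, whereas the difference between genotypes did not. With 2 libraries against 2 an exact two-sided permutation test cannot go below p = 0.333, and none is given for these ratios.

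The other genes of the pathway were 27 genes listed by role, of which 26 were matched and tested. PAGR1, a further subunit of the KMT2C and KMT2D complexes, was not matched. None of the 26 was DE and none had an unadjusted limma p below 0.05. Their log2 fold changes ran from −0.41 to 0.22 with a median of 0.02, and 16 were above 0.

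The core that every KMT2 enzyme needs for activity (WDR5, RBBP5, ASH2L and DPY30) had a median log2 fold change of 0.12. WDR5, the subunit that docks the enzyme, was furthest from 0 at 0.22 (limma adjusted p = 0.996), with 127 and 103 CPM in dKO and 129 and 136 CPM in tKO. Its tKO libraries lay above both dKO libraries, by little over dKO 1. Among the partners of KMT2A and KMT2B, TASP1, the protease that cleaves both enzymes, was furthest at −0.19 (limma adjusted p = 0.996). It had 186 and 189 counts in dKO and 140 and 151 in tKO, which did not overlap as CPM. On the log2-CPM scale RBBP5, DPY30 and MEN1 did not overlap between the groups either, beside 31.7% of all tested genes.

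In the SETD1 complexes, which place most H3K4 trimethylation, WDR82 had the largest value of any list gene, −0.41 (SE 0.29, 95% interval −1.10 to 0.28, limma adjusted p = 0.996). It had 302 and 281 CPM in dKO, 306 CPM in tKO 1 and 156 CPM in tKO 2. The tKO 1 library was at 106% of the dKO mean and tKO 2 at 53.3%, so the value came from 1 library. WDR82 lies in the stretch of chromosome 3 that was low in tKO 2 (GRCh37 chr3:52288450-52322036), and the 119 genes with a mean log2-CPM above 1 within 5 Mb of it had a median log2 difference of −0.91 in tKO 2 and −0.00 in tKO 1. For the members the same measure ran from −0.01 to 0.04 in tKO 1 and from −0.03 to 0.10 in tKO 2, so no member sat in a region that had shifted.

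The enzymes that work against the members were as flat. Of the H3K4 demethylases KDM5C was furthest from 0 at 0.06, and of the PRC2 core, which methylates H3K27 and so opposes KDM6A and KDM6B, SUZ12 was furthest at −0.06. The Trithorax relatives KMT2E and ASH1L had −0.01 each. CREBBP and EP300, which acetylate H3K27 at the enhancers that KMT2C and KMT2D mark, had 0.21 and 0.08. CREBBP had 190 and 134 CPM in dKO and 179 and 191 CPM in tKO, again with dKO 2 lowest.

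**Figure D5:**
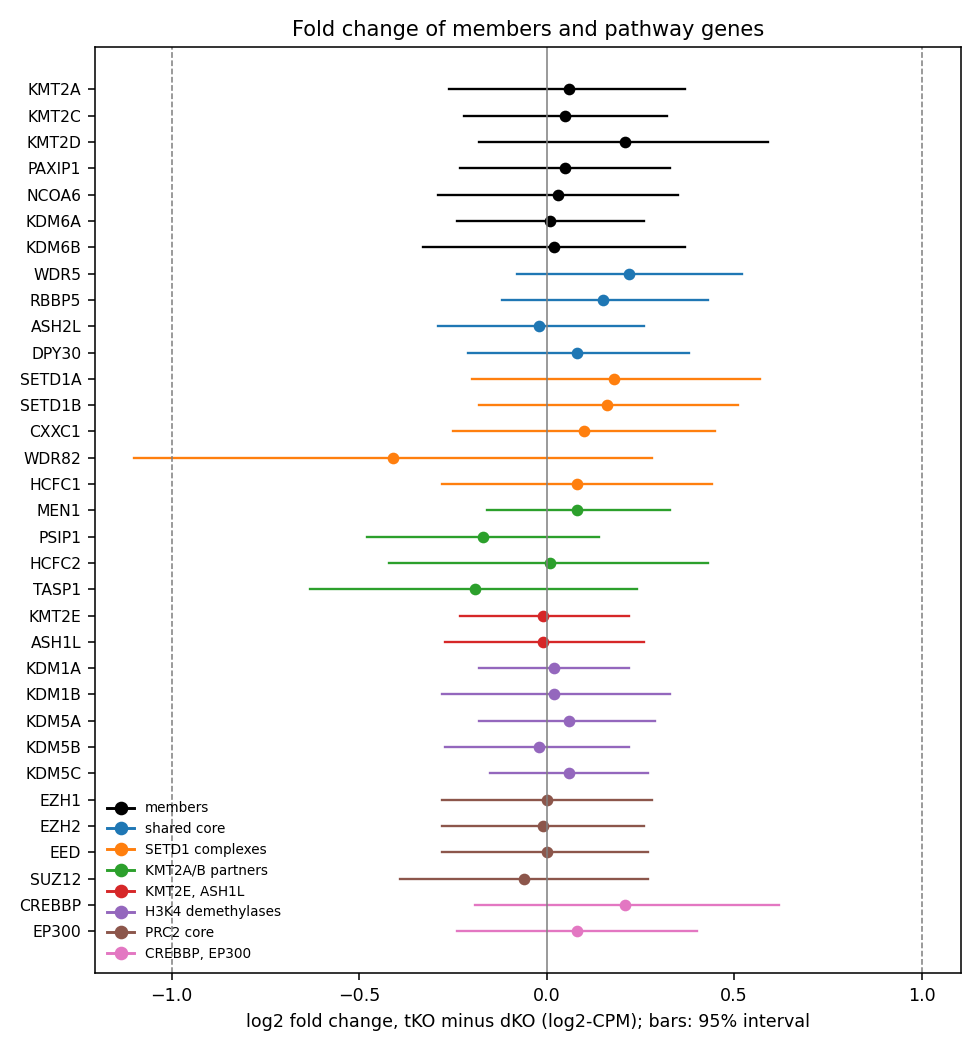
Log2 fold change (tKO minus dKO, horizontal axis) of the 7 tested members and 26 pathway genes, coloured by list, with 95% intervals from limma as bars; dashed lines mark a 2-fold change in either direction. All intervals include 0, and that of WDR82 alone reaches past a dashed line, at −1.10.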

How the data were processed

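Polyadenylated RNA from 2 dKO and 2 tKO samples of HAP1 cells, described as independent biological replicates, was sequenced as stranded paired 100-base reads. The authors trimmed reads with cutadapt (1.12) through Trim Galore (0.4.4), removed ribosomal reads with Bowtie (1.2) and mapped the rest to GRCh37 with STAR (2.5.2b), allowing 6 mismatches and 20 loci. The deposited values were raw counts of uniquely mapped read pairs over exons of GENCODE release 19 genes, not normalised or pooled. The column antisense to the gene, which held most gene reads, was used. The other strand took between 4.01% and 4.24% of stranded gene reads, and between 14.3% and 14.8% of reads were multimapping and uncounted.

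For symbols, positions and lengths, GENCODE release 44 in its lifted GRCh37 form was joined on unversioned gene identifiers, and 97.5% of tested genes had a symbol. The expression filter was a CPM over 0.5 in 2 or more libraries. Counts were converted to log2-CPM with TMM library sizes and a prior count of 2 in edgeR (4.0.16), and genotype was the only term of a limma (3.58.1) model, run under R (4.3.3) with a mean-variance trend and Benjamini-Hochberg adjustment over 15136 genes, following the design in the study's methods. Printed CPM are scaled to each library's total of gene counts. Transcript uniqueness was the exact recurrence, on either strand of GRCh37, of 31-base windows of canonical exons.

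The members, the pathway lists and the markers were chosen with earlier results of these data known. Values are given for all members and targeted genes, and within each list for the gene furthest from 0, those in the shifted stretches of chromosomes 3 and 10, and those named beside the gap between dKO libraries, the last chosen after their values were seen. Alternatives were limma-voom, edgeR's quasi-likelihood test, DESeq2 (1.42.0), no trend, RLE size factors, other filters, unstranded counts, a prior count of 0.25, a replicate block, leaving out each library and other gene lengths.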

Additional observations from a re-analysis of the deposited data

How the results depend on the processing

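The count of 0 DE members, and of 0 DE genes in the pathway lists, was the same under every alternative run, leaving out each library included. Across the 77 values of member fold changes under alternatives that kept all libraries, the direction did not change (0.00 to 0.21, smallest adjusted p 0.765). It did change for 13 of 28 member values from the fits that left out 1 library. These were 7 of 7 members without dKO 2 and 5 without tKO 1 (not KMT2D or KDM6A). Without tKO 2 the direction changed for 1 member (KDM6A) and without dKO 1 for 0. Leaving out 1 library at a time moved the log2 fold change of KMT2A from −0.11 to 0.22, KMT2C from −0.06 to 0.16, KMT2D from −0.03 to 0.44, KDM6A from −0.05 to 0.07, KDM6B from −0.11 to 0.15, PAXIP1 from −0.06 to 0.15 and NCOA6 from −0.14 to 0.20 (smallest limma adjusted p 0.0908). In these fits the lone library of a genotype is assumed to vary like the others.

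The number of DE genes among all tested was 2 and depended on the fit: 1 with the edgeR quasi-likelihood test, 25 with DESeq2, 1 with limma without a trend, 0 with no filter (1447 at an unadjusted p below 0.05), 1 with a CPM above 5, 1 with unstranded counts, 1 after a length correction chosen after seeing the data, and 0 to 480 when a library was left out (0 without dKO 1 or dKO 2, 480 without tKO 1, 175 without tKO 2). Without dKO 1 and without dKO 2, 255 and 119 genes had an unadjusted p below 0.05. The BAP1 log2 fold change was −3.77 (adjusted p 0.384) without a trend, −3.78 (adjusted p 0.734) with no filter, and −4.05 to −3.50 when a library was left out, losing significance without dKO 1 (−3.77) or dKO 2 (−3.78). The causes were not tested.

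Deviations from the group means of same-numbered libraries correlated at r = 0.0581 over 15136 genes. One correlation over all genes cannot show whether the libraries were prepared in pairs. A fit with the replicate block called 13 genes, none of them a member, beside 2 genes without the block.

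The log2 ratio of KMT2C over KMT2D was −1.99 in dKO and −2.15 in tKO on the union of exons and −0.63 and −0.79 on the canonical transcript. The log2 ratio of KDM6A over KDM6B was −1.01 in dKO and −1.02 in tKO on the union of exons, 0.05 and 0.04 on the longest transcript, and 1.04 and 1.03 on the canonical transcript, a length added after seeing the data. With 2 libraries per genotype, changes within the intervals given for each member cannot be told from none.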
